A study of Mus musculus with 12 samples.

Results

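The genes described here are the cytoplasmic translation initiation and elongation factors, the proteins that bring ribosomes to messenger RNAs, pick the start codon and then move the ribosome along the coding sequence. They were taken by name: protein-coding genes whose symbol begins with Eif1 to Eif6 or with Eef1 or Eef2, pseudogenes excluded. The Eif2ak kinases and Eif2s3y, which match the names, were left out by the same rule. This gave 62 genes of 43346 annotated genes in the deposited gene tables, and 5 genes with matching symbols were left out. Membership rests on the name alone.

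The samples were 12 Smart-seq RNA-seq libraries (a full-length cDNA method for very small amounts of RNA) from 1 male mouse aged 14 months, a B6CASTF1/J hybrid of Castaneus and C57Bl6. The labels state that 13 Purkinje cells, the output neurons of the cerebellar cortex, were excised from parasagittal tissue and homogenised as a pool. The lysate was then divided, so that a library held 1 cell-equivalent of RNA longer than 200 bases plus spike-in RNA. All libraries had the same biological replicate number, and they are named here by their technical replicate numbers, 1 to 6 and 8 to 13. There was 1 group with no treatment, genotype contrast or control, so the comparisons are between genes within a library. The p-values measure only the spread among aliquots of 1 pool from 1 animal. A low level in such a pool cannot separate less RNA in every cell from fewer cells carrying the transcript.

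Initiation begins when eIF2 brings the initiator tRNA to the small ribosomal subunit, with eIF3 as a scaffold and with eIF1 and eIF1A guarding the start codon. The eIF4 proteins bind the cap of the mRNA and unwind it, and eIF2B recharges eIF2 with GTP after each round. In elongation, eEF1A delivers aminoacyl-tRNAs, the eEF1B complex recharges eEF1A, and eEF2 translocates the ribosome. Of the eEF1A genes, Eef1a1 is expressed broadly, whereas Eef1a2 is known as the form of adult neurons and muscle.

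The libraries held 13694551 to 24108916 expected counts (estimated read numbers) on annotated genes, and 5407 to 8645 genes per library had at least 50. Libraries 1, 4 and 13 had the most such genes. The Purkinje markers (10 of 10 genes with at least 50 counts in every library) had a summed TPM (a length-scaled share of all transcripts) of 20992 to 36749 per library. Markers of Bergmann glia and astrocytes, cells that surround Purkinje cell bodies, summed to 1628 to 4418 TPM, with 6 of 9 markers at 50 or more counts in every library. Granule cell markers summed to 86.0 to 801 TPM, oligodendrocyte markers to 91.3 to 378 TPM, microglial markers to 0 to 446 TPM and endothelial and mural markers to 0 to 191 TPM. In the microglial list C1qc had no count in any library, while Ctss reached 271 TPM and Tyrobp 220 TPM in their highest libraries; in the endothelial and mural list Cldn5 and Acta2 had none, while Vtn reached 100.9 TPM and Rgs5 80.9 TPM. Translation factors are not specific to Purkinje cells, and the part of the other cells in the levels below was not tested.

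Eif1 was the highest member in 12 of 12 libraries and Eef1a1 came second in 9 of them, while 24 of the 62 members had under 1 count in at least 1 library. Together the 62 genes held 6892 ± 1487 TPM (SD, n = 12). Library 1 had the lowest sum, 4234, and library 3 the highest, 10072. Of the 62, 59 averaged 1 TPM or more and 2 had no count at all. Between 36 (library 11) and 53 (library 13) members reached 50 counts in a library. The start codon selection factors held 36.3% of the members' summed TPM, the eIF3 genes 19.4%, the elongation factors 18.9% and the eIF4 cap-binding and helicase genes 13.9%. The eIF4E inhibitors and transporter held 0.488%. Over transcripts annotated as coding only, a sum added after the data had been seen, the order turned: the eIF3 genes held 30.6%, the elongation factors 19.5% and the start codon selection factors 19.0%.

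**Figure D1:**
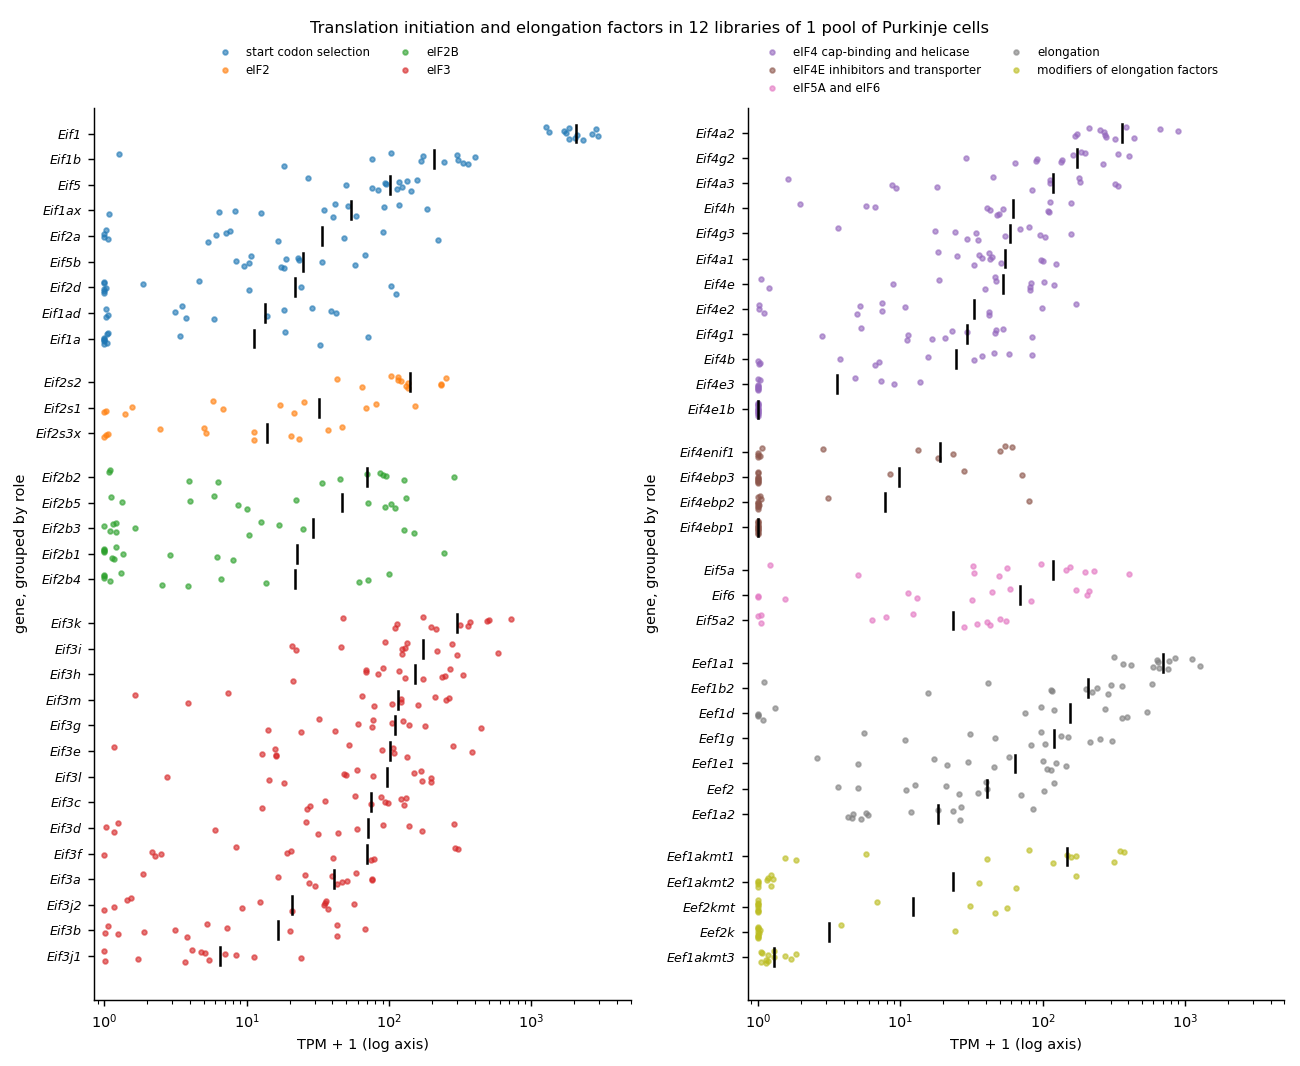
TPM + 1 of each of the 62 genes on a log axis, grouped by role; each point is 1 of 12 libraries and the black bar is the mean. Eif1 (1262 to 2925 TPM) and Eef1a1 (319 to 1284 TPM) have the highest means; of the other 60 genes, 38 reach over 100 TPM in at least 1 library and 42 fall under 1 TPM in at least 1.

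The coding starts of Eef1a2 and Eef1a1 are shown because the 2 genes encode alternative forms of the same elongation factor and reads must be told apart by such differences. They are the first 90 coding bases, 5′ to 3′, from the GENCODE M21 transcripts on GRCm38 (mm10), both on the minus strand, at chr2:181155317-181155406 for Eef1a2 and chr9:78480565-78480654 for Eef1a1; capitals mark the bases at which the 2 genes differ.
Eef1a2: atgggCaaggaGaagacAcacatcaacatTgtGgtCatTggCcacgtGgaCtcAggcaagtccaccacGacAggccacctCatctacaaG
Eef1a1: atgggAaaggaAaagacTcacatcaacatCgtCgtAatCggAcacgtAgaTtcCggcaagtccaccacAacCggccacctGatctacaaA
All 15 differing bases lie at the third codon position. Over the whole coding sequence, 80.1% of 1386 aligned bases were identical, and the longest identical run was 23 bases.

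Eef1a1, which delivers aminoacyl-tRNAs to the ribosome, was far above Eef1a2 in every library. Eef1a1 had 319 TPM in its lowest library, a median of 649 and 1284 in its highest, and its mean was 702 ± 288 TPM (SD, n = 12). Eef1a2 had 3.28 TPM in its lowest library, a median of 7.88 and 84.0 in its highest, with a mean of 17.5 ± 22.8 TPM (SD, n = 12). The ranges did not overlap. Within libraries Eef1a1 was 10.1 to 392 times Eef1a2, with a median of 77.5 times. The mean difference was -5.83 ± 1.45 on the log2(TPM + 1) scale (SD, n = 12), lower for Eef1a2 in 12 of 12 libraries (adjusted p = 0.00133, exact two-sided sign-flip permutation test adjusted over 19 pairs of related genes by Benjamini-Hochberg). The unadjusted p was 0.000488 (exact sign-flip permutation test), the smallest that 12 libraries allow. Other pairs below had the same p, so it does not rank this pair above them. Adding 1 to TPM before taking logs understates the differences of low genes.

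Eef1a2 was nevertheless present in all 12 libraries, with 113 to 3713 expected counts. Its highest values were in libraries 1, 2, 3, 4 and 13, at 25.6, 84.0, 17.4, 22.5 and 25.5 TPM, and library 5 had 10.8 TPM. In libraries 6 and 8 to 12 it lay between 3.28 and 4.96 TPM. The highest Eef1a1 values were in libraries 10 and 3, at 1284 and 1128 TPM. The transcript of Eef1a2 is 60.6% G and C and that of Eef1a1 is 47.4%, and the part of base composition in the difference was not tested. Copies of Eef1a1 in the genome (7 pseudogenes that match it) took 2.20% of the pooled counts of gene plus copies, at most 7.87% in a library, and adding them back left the difference at -5.23 in CPM (counts scaled to library size but not to length), where it was -5.20 without them.

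**Figure D2:**
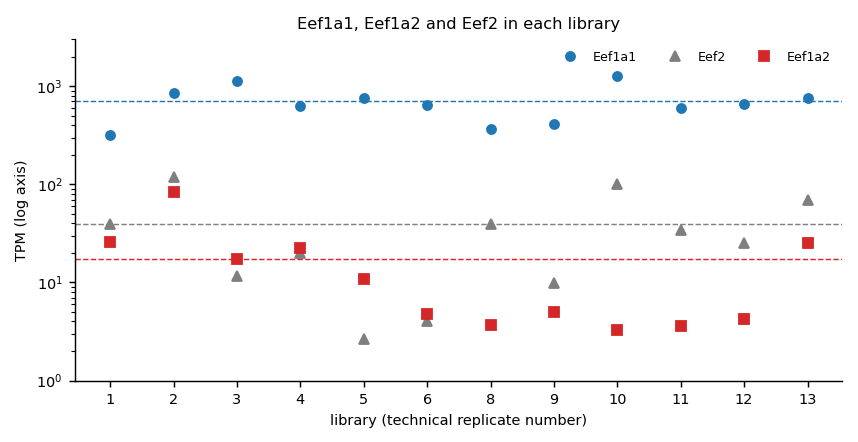
TPM of Eef1a1, Eef1a2 and Eef2 in each of the 12 libraries, on a log axis, with the mean of each gene as a dashed line. Eef1a1 is above both other genes in all 12 libraries, and Eef1a2 has its own lowest values in libraries 6 and 8 to 12.

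Eef2, which translocates the ribosome, was also far below Eef1a1. Its lowest library had 2.63 TPM (library 5), the median was 29.6 and the highest 119 (library 2). The difference from Eef1a1 was -4.68 ± 1.64 (SD, n = 12) on the log2(TPM + 1) scale, in the same direction in 12 of 12 libraries (adjusted p = 0.00133, exact sign-flip permutation test). Its inhibitory kinase gene Eef2k had no value above 0.03 TPM outside libraries 1 (2.81 TPM) and 6 (23.2 TPM), and its median was 0. Eef2k was lower than Eef2 by a mean of 4.11 log2 units and in 11 of 12 libraries (adjusted p = 0.00278, exact sign-flip permutation test). Library 6 was the exception. Over the 7 libraries left without libraries 1 to 5 the mean difference was -4.17, but the adjusted p was 0.0594 (exact sign-flip permutation test).

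The eEF1B genes encode the exchange factor that recharges eEF1A: Eef1b2 and Eef1d carry the exchange activity and Eef1g is the gamma subunit. Eef1b2 had 0.1 TPM in library 1, a median of 210 and 585 in library 3. Eef1g had 4.52 TPM at its lowest, a median of 99.6 and 306 at its highest. On coding transcripts only, a sum added after the data had been seen, the medians were 0.89 TPM for Eef1g and 95.7 for Eef1b2. Of the TPM of Eef1b2, 41.3% lay on transcripts annotated for nonsense-mediated decay. None of the 3 subunit pairs passed the test, and Eef1d minus Eef1b2 had an SD of 4.81 log2 units over libraries. Eef1d was below Eef1b2 in 8 of 12 libraries.

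Eef1d was either high or near absent. It had 74.3 to 542 TPM in 7 libraries (1, 3, 4, 5, 6, 11 and 12), at least 784 expected counts in each. In the other 5 libraries it had 0 to 0.31 TPM and at most 2 counts. No library lay between these values. Eef1d is known for a long form found in brain and testis; the 3 transcripts with the longer coding sequence (up to 1980 bases) held 2.26% of the gene's TPM, and 12 shorter ones held 97.2%. The long form reached 50 counts in 2 libraries and the short forms in 7. Eef1d shares 277 exon bases on the same strand with Naprt, whose mean count was 37.6.

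Eef1e1, whose product is part of the multi-tRNA synthetase complex, had 1.59 to 144 TPM with a median of 50.7. Among the genes that modify elongation factors, Eef1akmt1, a lysine methyltransferase of eEF1A, had the highest mean, 146 ± 135 TPM (SD, n = 12). It had 0.54, 0.85 and 4.7 TPM in libraries 9, 11 and 4 and 371 TPM in library 3. Eef1akmt3 had the lowest mean of the group, 0.291 ± 0.269 TPM (SD, n = 12), with counts in every library (3 to 36) but never 50. Eef2kmt had counts in 4 libraries, and it overlaps Alg1 on the opposite strand over 472 bases, so their reads cannot be told apart where the strand of the library is not given.

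Eif1, a guard of start codon choice, was the highest member by gene TPM. Its lowest library had 1262 TPM, the median was 1925 and the highest was 2925. The mean was 2043 ± 549 TPM (SD, n = 12), which put it at rank 28 of all protein-coding genes. Eif1b, a close copy, had 0.27 TPM in library 2, a median of 206 and 397 in library 5. Their coding starts are shown because the same protein family is read from 2 loci. They are the first 90 coding bases of the spliced transcripts, both on the plus strand, within chr9:120492811-120494165 for Eif1b and chr11:100320130-100320724 for Eif1, with capitals at the bases that differ between the genes.
Eif1b: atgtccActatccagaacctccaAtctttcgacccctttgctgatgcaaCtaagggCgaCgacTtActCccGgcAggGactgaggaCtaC
Eif1: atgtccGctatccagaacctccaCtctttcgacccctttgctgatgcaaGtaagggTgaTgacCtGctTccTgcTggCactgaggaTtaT
Of the 13 differing bases, 10 lie at the third codon position, and 81.1% of all 339 coding bases were identical. Eif1b was lower than Eif1 in 12 of 12 libraries by a mean of 4.10 ± 2.40 (SD, n = 12) log2 units (adjusted p = 0.00133, exact sign-flip permutation test). Library 2 was the widest case.

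The size of the Eif1 value depended on short transcripts that are not annotated as coding. Eif1-202, a processed transcript of 383 bases, held 51.6% ± 4.74 (SD, n = 12) of the gene's TPM and led in all 12 libraries. Eif1-203, another processed transcript, of 447 bases, held 27.9%. The coding transcript Eif1-201, of 1322 bases, held 20.3% of the TPM and 49.4% of the expected counts. Summed over coding transcripts only, Eif1 had 409 ± 131 TPM (SD, n = 12), beside 400 ± 177 TPM (SD, n = 12) for Eef1a1. On that scale Eif1b remained below Eif1, with a mean difference of -1.76 log2 units (adjusted p = 0.00928, exact sign-flip permutation test), in a comparison added after the data had been seen.

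Among the other start codon factors, Eif5, the GTPase-activating partner of eIF2, had 25.9 TPM at its lowest, a median of 103 and 156 at its highest. Eif5b, which joins the large subunit, had 7.42 to 67.2 TPM and at least 771 counts in every library. It overlaps Rev1 on the opposite strand over 1643 bases. Retained-intron transcripts held 58.2% of the TPM of Eif5b. On coding transcripts only, a sum added after the data had been seen, its median was 5.97 TPM. Eif1ax and Eif1a encode eIF1A, from the X chromosome and from chromosome 18. Eif1ax had 0.07 TPM at its lowest (library 11), a median of 39.9 and 184 at its highest (library 5). Eif1a had a median of 0.04 TPM and a highest value of 70.6, also in library 5, and had counts in 7 libraries. Eif1ax was higher in 12 of 12 libraries by a mean of 3.37 ± 2.30 (SD, n = 12) log2 units (adjusted p = 0.00133, exact sign-flip permutation test), although library 11 held both genes near 0. The remaining genes, Eif2a and Eif2d (alternative carriers of tRNA) and Eif1ad, had means of 32.9, 20.8 and 12.4 TPM and lowest values of at most 0.03. Over coding transcripts alone their means were 7.65, 12.2 and 12.4 TPM, and the median of Eif2a was 0. Eif1ad overlaps Banf1 on the opposite strand over 428 bases, and Banf1 had a mean count of 3662 beside 587 for Eif1ad.

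The 3 subunits of eIF2, which carries the initiator tRNA, were measured at unequal levels. Eif2s2 (beta) had 41.8 TPM at its lowest, a median of 125 and 250 at its highest, with at least 1424 counts in every library. Eif2s1 (alpha, the subunit phosphorylated under stress) had a median of 11.0 TPM and ranged from 0 (library 11) to 152 (library 5). Eif2s3x (gamma) had a median of 7.16 TPM and a highest value of 46.0. Eif2s2 was higher than Eif2s1 in 11 of 12 libraries by a mean of 3.68 ± 2.803 (SD, n = 12) log2 units (adjusted p = 0.00232, exact sign-flip permutation test over the related pairs). Eif2s1 and Eif2s3x did not pass the test (mean difference 0.55 ± 3.396, SD, n = 12; adjusted p = 0.673 over 82 subunit pairs, exact sign-flip permutation test). Pseudogenes took up to 68.5% of the counts of Eif2s1 plus copies and up to 67.0% of those of Eif2s3x in a library. The mean shares over libraries were 6.36% and 6.10%. The main copy of Eif2s1, Gm12734, and that of Eif2s3x, Gm2223, each reached 50 counts in 1 library only. Values of these 2 genes are uncertain where the copies had such counts.

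The 5 genes of eIF2B, the exchange factor of eIF2, were found unevenly, and none had 50 counts in every library. Eif2b2 (beta) had the highest mean, 69.3 ± 79.8 TPM (SD, n = 12), and ranged from 0.07 to 283. Eif2b4 (delta) had the lowest mean, 20.95 ± 34.5 TPM (SD, n = 12), with counts in 9 libraries and an overlap of 204 bases with Snx17 on the opposite strand. Eif2b1 (alpha) had the lowest median, 0.19 TPM, with 1 library at 242. Of the 10 pairs, 1 passed the test: Eif2b1 was below Eif2b2 in 10 of 12 libraries (mean difference -3.33 ± 2.98, SD, n = 12; adjusted p = 0.0234, exact sign-flip permutation test). Retained-intron transcripts held 64.0% of the TPM of Eif2b2. On coding transcripts only, Eif2b2 had a mean of 19.6 TPM and a median of 0.13, Eif2b5 had the highest mean, 46.0 TPM, and Eif2b1 minus Eif2b2 was -0.51 and did not pass (adjusted p = 0.757, exact sign-flip permutation test, added after the data had been seen). The summed gene TPM of the 5 genes ranged from 17.2 in library 1 to 447 in library 8.

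The 14 eIF3 genes encode the largest initiation factor, 12 of them core subunits. The core genes summed to 1310 ± 378 TPM (SD, n = 12), from 653 to 2141 per library, and 7 of the 12 had 50 or more counts in every library. Eif3k was the highest, with 46.3 TPM in library 2, a median of 263 and 721 in library 3, and Eif3b, which encodes a central scaffold subunit, was the lowest, with 0.01 TPM at its lowest, a median of 3.54 and 66.9 at its highest. Their means were 300 and 15.5 TPM, a ratio of 19.3. Eif3b was lower in 12 of 12 libraries, with a mean difference of -5.27 ± 2.93 (SD, n = 12) log2 units (adjusted p = 0.00801, exact sign-flip permutation test adjusted over 82 subunit pairs).

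Between neighbours in the order no difference was resolved. In descending mean of log2(TPM + 1) the core genes were Eif3k, Eif3h, Eif3i, Eif3g, Eif3c, Eif3l, Eif3m, Eif3e, Eif3a, Eif3d, Eif3f and Eif3b. None of the 11 neighbouring pairs passed the test, whereas 18 of all 66 pairs did. Eif3k took part in 8 of these and Eif3b in 8. Over all 4 complexes, 21 of 82 pairs passed; without library 1 it was 13, without library 11 it was also 13, and with CPM in place of TPM it was 5. Eif3a, which encodes a scaffold subunit, had 0.87 to 74.7 TPM with a median of 40.4, and its count was at least 98 in every library.

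**Figure D3:**
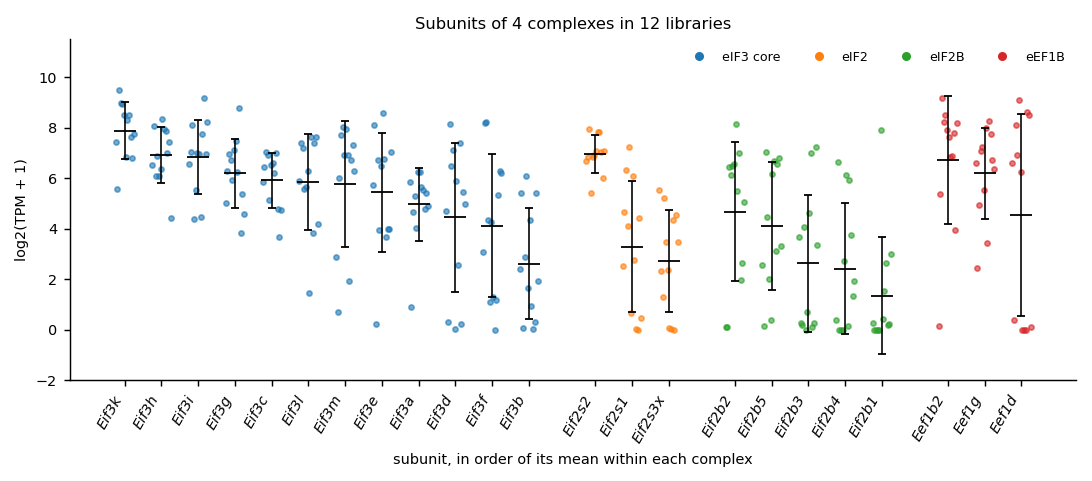
log2(TPM + 1) of the subunits of eIF3 (12 core genes), eIF2, eIF2B and eEF1B in the 12 libraries; points are libraries, bars the mean and whiskers 1 SD. The eIF3 subunits descend from Eif3k to Eif3b in steps smaller than the SD, while Eef1d divides into 7 high libraries and 5 near 0.

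Eif3j1 and Eif3j2 encode the loosely attached j subunit, and their coding sequences were identical over 783 aligned bases, so how their reads were divided is uncertain. Eif3j1 had the lowest mean of the eIF3 genes, 5.46 ± 6.32 TPM (SD, n = 12), and Eif3j2 had 19.7 ± 19.0 TPM (SD, n = 12). The difference did not pass the test with all libraries (adjusted p = 0.154, exact sign-flip permutation test). Without library 9 the adjusted p was 0.0135 (exact sign-flip permutation test). Library 9 had the widest difference in the other direction and was singled out by its value, so the second p is no separate test.

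The eIF4 genes include the helicase eIF4A, which unwinds mRNA leaders. Eif4a2, the form known to be abundant in brain, was the third member by mean, with 169 TPM at its lowest, a median of 276 and 897 at its highest. Eif4a1 had 17.5 TPM at its lowest, a median of 41.5 and 123 at its highest, and the ranges did not overlap. Eif4a2 was higher in 12 of 12 libraries, 1.69 to 21.7 times within a library with a median of 6.46 times. The mean difference was 2.77 ± 1.18 (SD, n = 12) log2 units (adjusted p = 0.00133, exact sign-flip permutation test). Of the TPM of Eif4a2, 40.8% lay on transcripts annotated for nonsense-mediated decay, and Eif4a2-210 alone ranged from 0 to 99.3% of the gene by library. Summed over coding transcripts only, the mean difference was 1.64 ± 2.91 (SD, n = 12) and no longer passed the test (adjusted p = 0.123, exact sign-flip permutation test, added after the data had been seen).

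Eif4a3, a related helicase of the exon junction complex, had 0.63 to 338 TPM with a median of 97.4. On coding transcripts only, a sum added after the data had been seen, its median was 10.4 TPM. The gene TPM of Eif4a3 was above that of Eif4a1 in 8 of 12 libraries. The mean difference was 0.17 ± 2.67 (SD, n = 12, adjusted p = 0.824, exact sign-flip permutation test). Eif4b and Eif4h encode helpers of eIF4A. Eif4h had a median of 47.3 TPM and Eif4b of 10.3 TPM. Their difference did not pass the test (adjusted p = 0.154, exact sign-flip permutation test). Without library 3 the adjusted p was 0.0337 (exact sign-flip permutation test). Library 3 had the widest difference in the other direction and was singled out by its value, so the second p is no separate test.

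Eif4e, which binds the mRNA cap, had 0.05 TPM at its lowest, a median of 45.4 and 119 at its highest. Eif4e3 was lower in 12 of 12 libraries, with a median of 0 and a highest value of 12.7 TPM. The mean difference was -3.72 ± 2.23 (SD, n = 12, adjusted p = 0.00133, exact sign-flip permutation test). In libraries 2 and 11, however, Eif4e itself had 0.05 and 0.2 TPM, so both genes were near 0 there. Eif4e2, a cap-binding relative that does not recruit eIF4G in the usual way, had a median of 6.46 TPM and 172 TPM in library 2. It was below Eif4e in 10 of 12 libraries, which did not pass the test (adjusted p = 0.177, exact sign-flip permutation test). Without library 2 the adjusted p was 0.00506 (exact sign-flip permutation test). That library had the widest difference in the other direction and was singled out by its value, so the second p is no separate test. Eif4e1b, known from oocytes, had no count in any library.

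The eIF4G genes encode the scaffold between cap-binding protein and ribosome. Eif4g2, whose coding sequence begins with GTG in the annotation and whose product lacks the eIF4E-binding part, was the highest, with 28.0 TPM at its lowest, a median of 148 and 401 at its highest. Eif4g1 had 1.81 TPM at its lowest, a median of 21.01 and 83.3 at its highest. On coding transcripts only, a sum added after the data had been seen, the medians were 75.9 TPM for Eif4g2 and 7.805 for Eif4g1. Eif4g2 was higher in 11 of 12 libraries by a mean of 2.81 ± 1.87 (SD, n = 12) log2 units (adjusted p = 0.00278, exact sign-flip permutation test), while over the 7 libraries left without libraries 1 to 5 the mean difference was 2.46 and the adjusted p 0.0742. Eif4g3, with a median of 43.7 TPM, did not pass the test against Eif4g1 (mean difference 1.04 ± 2.48, SD, n = 12; adjusted p = 0.202, exact sign-flip permutation test).

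The 4E-binding proteins, which hold eIF4E away from eIF4G, were at the edge of detection. Eif4ebp1 had no count in any library. A count of 0 allows up to 0.124 to 0.219 CPM by library, for counting error only. The Eif4ebp1 transcript that was quantified had 981 bases, and the same transcript has 1997 in GENCODE M21. For Eif4ebp2-201 the lengths were 1786 and 5784 bases, and for Eif4e-201 they were 2882 and 4991. Eif4ebp3 had 744 bases in both. The part of these shorter models in the low values was not tested. Eif4ebp2, known as the main form in brain, had 79.2 TPM in library 5, 2.08 TPM in library 3 and at most 0.05 TPM in the other 10 libraries. It was below Eif4e in 12 of 12 libraries (mean difference -4.05 ± 2.63, SD, n = 12, adjusted p = 0.00133, exact sign-flip permutation test), although libraries 2 and 11 held both genes near 0. Eif4ebp3 had counts in 3 libraries. Eif4enif1, the eIF4E transporter, had the highest mean of the group, 18.1 ± 23.3 TPM (SD, n = 12), with counts in 9 libraries.

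**Figure D4:**
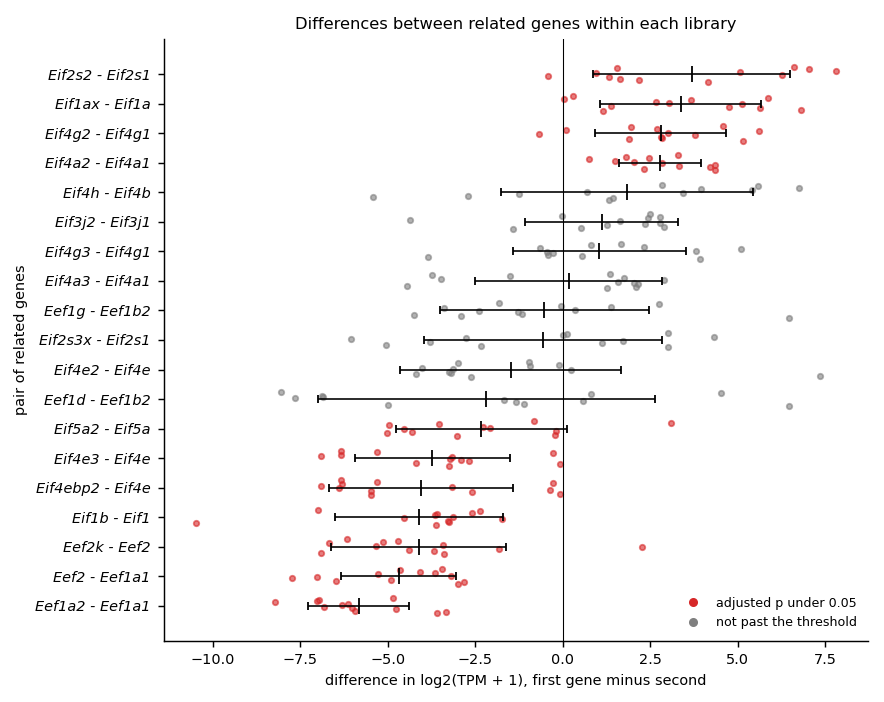
Differences in log2(TPM + 1) between related genes within each library for the 19 pairs tested; points are libraries, bars the mean and whiskers 1 SD, and red marks an adjusted p under 0.05. The 11 pairs in red include Eef1a2 minus Eef1a1 at the bottom, below 0 in all 12 libraries, and Eif4a2 minus Eif4a1, above 0 in all 12.

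Of the 20 pairs listed, 19 could be tested and 11 passed; Eif4ebp2 against Eif4ebp1 could not be tested because of the zero counts. Of the remaining roles, Eif5a, which eases peptide bond formation and carries hypusine, had 0.21 TPM at its lowest, a median of 76.3 and 405 at its highest. Eif5a2 had a median of 19.2 TPM and a highest value of 54.2, and was below Eif5a in 11 of 12 libraries (mean difference -2.32 ± 2.45, SD, n = 12; adjusted p = 0.0186, exact sign-flip permutation test). With CPM this difference was -0.80 and did not pass (adjusted p = 0.434). Eif6, which keeps the large subunit apart, had a median of 36.9 TPM and a highest value of 211. On coding transcripts only, a sum added after the data had been seen, its median was 1.385 TPM and its highest value 124.

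Leading transcripts were examined for the 33 members averaging 10 TPM or more with 2 or more transcripts in the annotation. For most of these 33 the leading transcript changed between libraries. It was annotated as protein coding for 25 of them. The same transcript led in every library with TPM for 4 members, and in all 12 libraries for 3: Eif1, Eif3i and Eif2s2. The median share on the leading transcript was 54.8%. For Eef1g, 64.5% ± 43.0 (SD, n = 12) of the TPM lay on transcripts with a retained intron, led by Eef1g-205. Of Eef1a1, 57.6% lay on coding transcripts and 17.6% on retained-intron transcripts. In all, 8 of the 33 genes had a mean share over 20% on retained-intron transcripts. Transcript shares, other than those of the Eef1d forms, are means over libraries. Each library with a value weighs alike in them, also one with few counts of the gene.

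**Figure D5:**
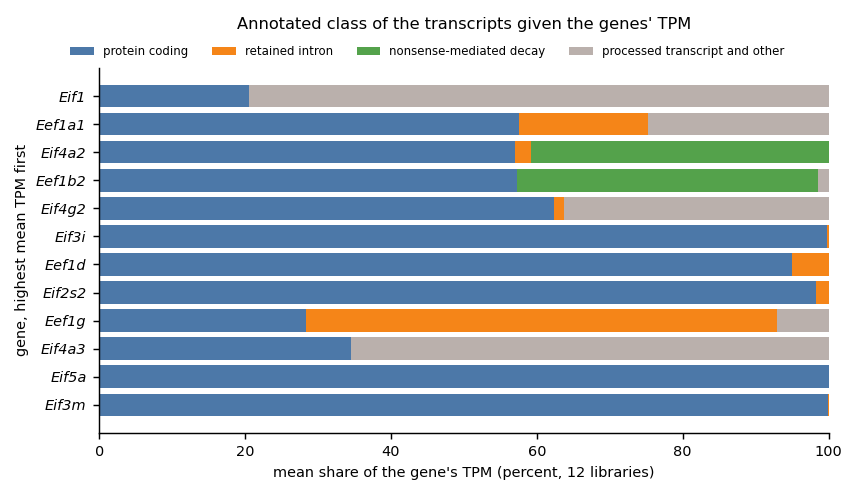
Mean share of each gene's TPM by annotated transcript class, over the libraries in which the gene was measured, for the 12 genes with the highest mean TPM among those with at least 2 transcripts. Eif1 is mostly on processed transcripts, Eef1g mostly on retained-intron transcripts, and Eif4a2 has 40.8% on transcripts annotated for nonsense-mediated decay.

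Detection in every library followed abundance. Of the 62 members, 19 had 50 or more counts in all 12 libraries. At a mean of 100 to 1000 TPM this held for 10 of 18 members (55.6%) and for 701 of 962 protein-coding genes (72.9%). At 10 to 100 TPM it held for 8 of 35 members (22.9%) and for 700 of 4972 protein-coding genes (14.1%). The 8 members averaging 100 TPM or more that missed it included Eef1d, with 7 libraries, and Eef1b2 and Eif1b, with 11 each. Across the 60 members with counts, mean TPM had a Spearman correlation of -0.48 with transcript length and of 0.06 with GC content. These are descriptions over genes that share the same libraries. Length and GC content were those of a coding transcript of each gene in GENCODE M21, which was not always the leading transcript. TPM is itself scaled by length, and the part of that scaling was not tested.

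The spread of the members over libraries was many times counting error. Eif1 had the lowest coefficient of variation (SD over mean) of the members, 33.1% in TMM-scaled counts, where counting alone gives 0.712%, and Eif5 the next lowest, 38.3%. A gene's variability was set against the abundance trend of all genes with the quasi-dispersion of edgeR. None of the 60 members tested was above the trend at an adjusted p under 0.05, beside 0.0144% of all 13899 genes, and 1 member, Eef1akmt3, was below it, beside 2.14% of all genes. Eef1akmt3 varied at 0.103 of its trend (adjusted p = 0.0263, edgeR, 12 libraries), with a mean count of 13.7. The call was lost without library 1, 5, 6, 8 or 13 and with spike-in size factors. Eef1akmt3 overlaps Mettl1 on the opposite strand over 100 bases, and Mettl1 had a mean count of 303. As the strand was not given, reads of the 2 genes cannot be told apart there. At an unadjusted p under 0.05, 1 of the 60 members was above the trend and 3 were below it, beside 0.684% and 5.89% of all genes, and DESeq2 marked no member as a dispersion outlier. The member above it was Eef1d, at 5.35 times the trend (unadjusted p = 0.0113, edgeR; adjusted p = 0.773). The other members below it were Eif4a1 at 0.230 and Eef1a2 at 0.245 of their trends (adjusted p = 0.351 and 0.405, edgeR). The median ratio to the trend was 1.32 for the members and 1.20 for all genes, and 35% of members and 34.0% of all genes were below the trend.

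Other genes of the translation pathway were measured in the same libraries. All 6 termination and recycling genes averaged 1 TPM or more, from Mcts1 (278 ± 158 TPM, SD, n = 12), a reinitiation and recycling factor, to Gspt2 (10.3 TPM). Of 6 genes for the kinases and phosphatases of eIF2, 4 averaged 1 TPM or more; Eif2ak1 was the highest at 20.04 TPM and Eif2ak4 the lowest at 0.0433 TPM. Of 11 genes of mTOR and kinase control, 9 did, with Rheb, an activator of mTOR, at 143 TPM and Akt1s1 at 0.215 TPM. Of 5 genes for poly(A)-binding proteins and partners, 4 did, with Paip2 at 157 TPM and Pabpc4 at 0.393 TPM. All 8 genes for hypusine and diphthamide, the modifications of eIF5A and eEF2, averaged 1 TPM or more and none had 50 counts in every library; Dph3 was the highest at 52.5 TPM and Dph2 the lowest at 2.90 TPM. All 6 mitochondrial factors did so, from Tufm at 46.3 TPM to Mtif3 at 1.64 TPM.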

How the data were processed

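Per the labels, the genome build was mm10; per the deposited text notes, reads were quantified on GENCODE M4. The names of aligner and quantifier, and the strand, were not given in the sources used here. Per the file headers, the deposited tables hold expected counts (estimated counts that need not be whole), TPM computed by the authors with spike-ins included, and, for transcripts, the percent of the gene's expression. The credibility bounds of TPM in the deposited tables were treated as scores and not used for tests. Symbols, coordinates and transcript classes were taken from GENCODE M21 (GRCm38, equal to mm10), where 42462 of 43346 gene identifiers matched.

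The gene family to describe, its naming rule and the lists were chosen with earlier results of these data known; which genes are members follows from their names alone. Genes named in full are the 6 with the highest mean TPM, the highest and lowest of each role, both genes of each pair discussed, and those called for variation; Eif1-203, the Eef1d forms and the low-value libraries were singled out after their values were seen. Pairs were tested on within-library differences of log2(TPM + 1) over 4096 sign patterns; the smallest p is 0.000488. Expected counts were rounded for edgeR 4.0.16 (glmQLFit, TMM, mean count of at least 5, R 4.3.3), with an F test of quasi-dispersion against the trend; DESeq2 1.42.0 was an alternative. These tests were also run on simulated data, made of normal differences and of negative binomial counts around the fitted trend. Such data may not match genes that were either high or near absent, as Eef1d was. Copies were pseudogene transcripts matching a member at 90% identity over 50% of their length (minimap2 2.31). Reads carry no molecular identifiers, so limits cover counting error only. Alternatives were other pseudocounts, CPM, a count floor, leaving out libraries, and coding transcripts only; the last was chosen after seeing the data.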

Additional observations from a re-analysis of the deposited data

How the results depend on the processing

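Eef1a2 minus Eef1a1 and the count of related pairs kept their direction and their side of the threshold, or stayed within 1.5 times, under every alternative run; leaving out 1 library at a time gave -6.06 to -5.61 and 11 to 12 pairs. The 21 subunit pairs became 5 with CPM, 13 to 23 leaving out 1 library, and 0 without libraries 1 to 5, 6 to 10 or 11 to 13, where 7 to 9 libraries give a smallest unadjusted p of 0.0156, 0.00781 and 0.00391. The members varying less than the trend (1) became 0 to 2 leaving out 1 library; it was 0 at a mean count of at least 50 and 0 with counts under 50 set to 0, settings that remove Eef1akmt3 before testing and say nothing about its call; with spike-in factors the gene called was Eif4a1. The 19 members with 50 counts in every library became 38 at a threshold of 1. Pairs that were not called changed sign: Eif4a3 minus Eif4a1 was -1.10 with CPM, -1.68 on coding transcripts, -0.0782 to 0.59 leaving out 1 library, -0.16 without libraries 1 to 5 and -0.0905 without 6 to 10; Eef1g minus Eef1b2 was 0.44 with CPM; Eif2s3x minus Eif2s1 was 0.0557 without libraries 1 to 5. Eif5a2 minus Eif5a was -2.16 without libraries 1 to 5 and -1.75 without 6 to 10, not called over 7 and 8 libraries (adjusted p = 0.139 and 0.124, exact sign-flip permutation test). CPM is not scaled to length, unlike TPM, and the part of length in the changes with CPM was not tested. The cause of the other changes was not tested either.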
